A study of Arabidopsis thaliana with 6 samples.

Results

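Genes for the synthesis of xylan were examined in mature Arabidopsis thaliana stems. The 33 loci were listed by name and sorted into 8 steps of the pathway. The list was chosen with earlier results of these data known, so it is described and not tested as a set. All 33 were found among the 34484 identifiers of the table. RNA-seq values came from 6 stem libraries. The labels give a stem age of 42 days after flowering and growth under a cycle of 16 h light and 8 h dark, with the temperature held at 20 °C. The 3 libraries with columns named WT_V were taken as the γVPE mutant, because those names were the ones left over, and the 3 with columns named WT as wild type. The product of γVPE (GAMMA-VPE, AT4G32940) is a cysteine protease that matures proteins inside the vacuole. The labels do not describe the mutant allele, the accession or how many plants were pooled. Sample titles count replicates 1 to 3 for each genotype, whereas the design text of the series states that there were no replicates. The p-values below therefore rest on the spread among libraries that may be technical repeats.

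Xylan is the main hemicellulose of secondary walls in xylem vessels and fibres. Its chain of xylose units is built in the Golgi, started or ended by a short sequence of other sugars at the reducing end, and decorated with glucuronic acid, methyl and acetyl groups. UDP-xylose, the sugar donor, is made from UDP-glucuronic acid. Plants with defective xylan genes often have collapsed vessels, from which the name irregular xylem (IRX) comes, and several steps are served by a pair of homologs of which one is known mainly from secondary walls.

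GAMMA-VPE stood at 328.1, 328.1 and 325.4 FPKM (fragments per kilobase of gene, scaled to the library) in the WT_V libraries, against 163.1, 164.4 and 162.7 FPKM in the WT libraries. The gene named as mutated was therefore higher, not lower, in WT_V (exact two-sided permutation p = 0.1, and no smaller p is possible with 3 against 3). Every direction below compares the WT_V label with the WT label and not a checked genotype. Depth, as the count total that turns FPKM values into whole counts, was 47386000 to 51014000 for WT_V and 40307000 to 46466000 for WT, so that 1 count in a gene of 1 kb was worth 0.0196 to 0.0248 FPKM. Libraries of a set differed by more than counting noise, with a median variance of 1.67 times Poisson in WT_V and 2.60 times in WT over 16 xylan genes.

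Markers of other organs differed between the sets as well, as did most of the table. Over all 19144 tested genes, 51.9% were called higher in WT_V and 24.1% lower. The 8 seed storage and oil body genes summed to between 15260 and 15517 FPKM in the WT_V libraries and to at most 0.0353 FPKM in the WT libraries, where 7 of the 8 were listed at 0 in each library. Of 6 seed coat markers 5 were higher and 1, MUM2, lower in WT_V (summed 160.9 to 162.2 FPKM in WT_V, against 62.7 to 64.2 in WT). All 10 flower and pollen markers were higher (summed 146.9 to 150.1 FPKM in WT_V, against 33.1 to 35.8 in WT), as were the 3 tested of 6 fruit margin markers (summed 45.0 to 48.0 FPKM in WT_V, against 8.50 to 9.44 in WT). Of 13 markers of the secondary wall in xylem and fibres, the cells that define a mature stem, 10 were tested. As deposited all 10 were higher in WT_V, at log2 differences of 0.33 to 2.17. The 13 genes summed to 169.6 to 173.4 FPKM in WT_V, against 63.2 to 65.4 in WT. MYB46, at 0.33, was not called after median-of-ratios scaling (0.18, limma adjusted p = 0.0606). After quantile normalization MYB46 was called lower (-0.24, adjusted p = 0.016) and SND1 was not called (0.04, adjusted p = 0.63). The part of these organs and cells in the xylan differences was not tested, and in whole stems more cells of a type cannot be told apart from more RNA per cell.

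Upstream sequence is shown for IRX10 and GUT1, a homolog pair whose balance differed between the sets, and for GAUT12 and GUX2, the members with the greatest differences. Each run is the 250 bases before the RefSeq gene start in assembly TAIR10.1, 5′ to 3′ on the strand of the gene, at chr1:9531490-9531739 on the minus strand for IRX10, chr5:24842144-24842393 on the minus strand for GUT1, chr5:22221969-22222218 on the minus strand for GAUT12 and chr4:16063252-16063501 on the minus strand for GUX2. The build used by the authors is not given in the sources used here. Capitals mark matches on either strand to the secondary wall MYB-responsive element (SMRE), the element bound by MYB46 and MYB83, in its 8 forms, which start with ACC, followed by A or T, then by A, then by A or C, and end with C or T.

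IRX10: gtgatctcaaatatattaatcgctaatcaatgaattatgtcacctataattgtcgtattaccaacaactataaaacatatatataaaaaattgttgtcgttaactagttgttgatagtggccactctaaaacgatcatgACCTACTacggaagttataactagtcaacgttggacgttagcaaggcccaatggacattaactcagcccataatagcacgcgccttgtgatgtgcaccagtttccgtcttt
GUT1: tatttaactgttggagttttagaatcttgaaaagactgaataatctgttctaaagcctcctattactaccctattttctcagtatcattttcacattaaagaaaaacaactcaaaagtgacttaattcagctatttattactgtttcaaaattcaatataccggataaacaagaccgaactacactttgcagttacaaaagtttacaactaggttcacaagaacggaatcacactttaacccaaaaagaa
GAUT12: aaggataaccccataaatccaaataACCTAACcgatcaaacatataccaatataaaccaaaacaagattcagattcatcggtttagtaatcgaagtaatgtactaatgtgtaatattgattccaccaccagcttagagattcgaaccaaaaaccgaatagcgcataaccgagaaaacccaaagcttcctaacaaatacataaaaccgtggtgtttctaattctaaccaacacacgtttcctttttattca
GUX2: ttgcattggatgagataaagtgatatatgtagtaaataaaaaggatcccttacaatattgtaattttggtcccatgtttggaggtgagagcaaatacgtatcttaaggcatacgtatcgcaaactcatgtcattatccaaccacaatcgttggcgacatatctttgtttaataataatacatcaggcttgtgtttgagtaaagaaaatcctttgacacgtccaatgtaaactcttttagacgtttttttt

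A match was found in the windows of 15 of the 33 members (45.5%), against 8058 of 27438 protein-coding nuclear genes (29.4%). IRX10 and GAUT12 each held 1 match on the strand of the gene, and GUT1 and GUX2 held none. Of the 9 members with a log2 difference of 1 or more, 4 held a match (GAUT12, IRX15-L, GUX1 and TBL33), as did 11 of the 24 others. RWA4 held 4 matches, none overlapping another, and TBL31 held 3. The windows of both, and those of RWA3, GXM2 and GXM3, overlap an annotated neighbouring gene, so part of their sequence belongs to that gene. A match describes letters in the window and does not show binding.

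Of the 33 genes, 30 averaged 1 FPKM or more over the 6 libraries and were tested, and 27 of the 30 were higher in WT_V and 0 lower by limma at an adjusted p of 0.05. Over all 19144 tested genes, 76.0% were called, 51.9% as higher and 24.1% as lower. A log2 difference of 1 or more, on the scale of log2(FPKM + 1), was called for 9 of the 30, against 10.8% of all tested genes. The median log2 difference of the 30 was 0.71, against 0.17 over all tested genes, and 16.3% of all tested genes had a difference above that of the median member. In 25 of the 30 every WT_V value lay above every WT value, as in 53.1% of all tested genes, while 77.6% of all tested genes had sets apart in either direction. The 33 genes together summed to 523.9, 525.1 and 530.4 FPKM in the WT_V libraries, against 342.1, 339.0 and 339.1 FPKM in the WT libraries, a ratio of means of 1.55.

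Since most of the table differed, the scaling bears on small differences. Under median-of-ratios scaling 24 members were called higher and 2 lower, where 73.5% of all tested genes were called, 35.8% as higher and 37.7% as lower. Under quantile normalization the members called numbered 22 as higher and 4 as lower, where 74.7% of all tested genes were called, 29.8% as higher and 44.9% as lower. A difference of 1 or more was then called for 5 members (background 9.12%) and for 2 members (background 6.1%). Scaling moved the median of all tested genes to -0.01 and -0.09, and the median member stood 0.55 above it as deposited, 0.53 after median-of-ratios scaling and 0.59 after quantile normalization. Called higher under all 3 scalings were 22 members, and GUT1, FRA8, GXM2, TBL3 and TBL35 were the 5 that lost the call or turned under at least 1 of them.

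**Figure D1:**
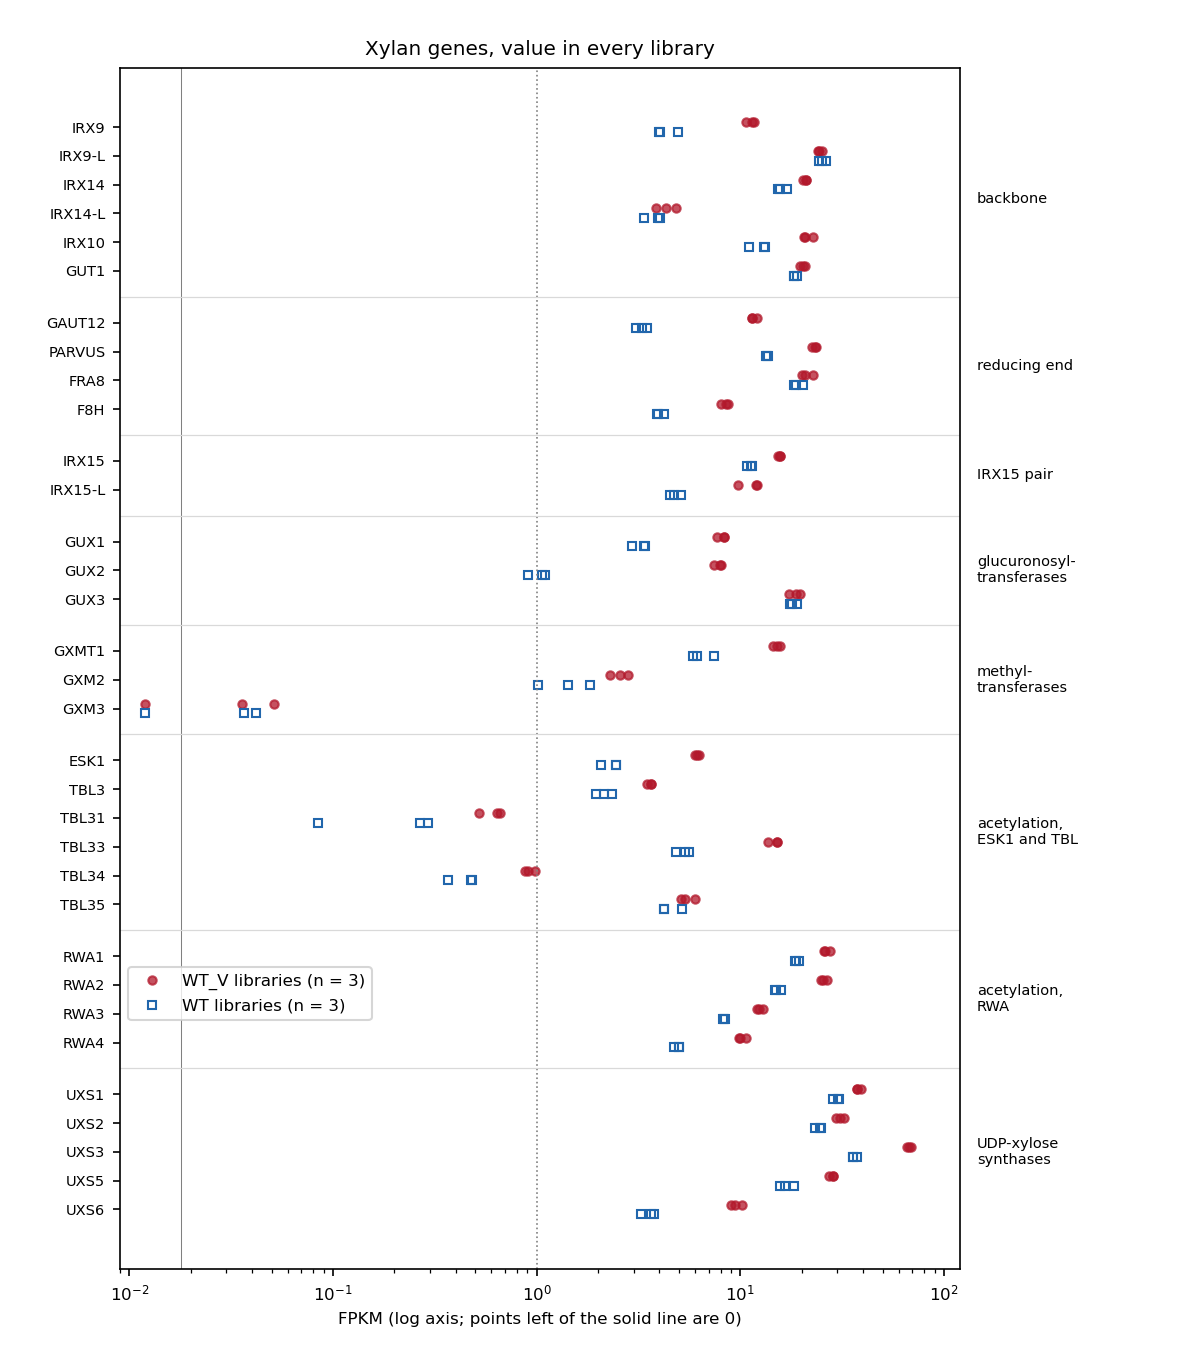
FPKM of each of the 33 xylan genes (log axis) in each WT_V library (filled circles, n = 3) and each WT library (open squares, n = 3), grouped by step; the dotted line is at 1 FPKM. In 27 of the 33 genes all WT_V points lie to the right of all WT points. Among the 30 tested genes this holds for 25, against 53.1% of all 19144 tested genes. TBL31 and TBL34, also among the 27, were under the filter, which that share does not cover. GXM3 lies near 0 in both sets.

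Of the 6 backbone genes 4 were called higher and 2 were not called, and the greatest difference was that of IRX9. IRX9 (AT2G37090), a glycosyltransferase needed to elongate the chain, stood at 11.4, 11.7 and 10.7 FPKM in WT_V libraries, against 4.03, 3.99 and 4.93 FPKM in WT libraries. Every WT_V value was above every WT value, at a log2 difference of 1.21 ± 0.08 (± SE with 3 libraries a set, adjusted p = 1.5e-07). Its homolog IRX9-L (AT1G27600) stood at 24.1, 25.2 and 24.4 FPKM in WT_V and at 25.3, 24.4 and 26.4 FPKM in WT, with overlapping sets. IRX9-L was not called, and its log2 difference of -0.05 had a 95% interval of -0.14 to 0.05 (adjusted p = 0.331). It was called lower after median-of-ratios scaling (-0.24) and after quantile normalization (-0.17).

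IRX10 (AT1G27440), a xylosyltransferase of the chain whose reference symbol is GUT2, stood at 20.6, 20.8 and 22.8 FPKM in WT_V libraries, against 13.0, 11.02 and 13.2 FPKM in WT libraries, and the sets lay apart. The log2 difference was 0.74 ± 0.07 (SE, n = 3 per set, adjusted p = 2.81e-06). GUT1 (AT5G61840), its close homolog, stood at 20.9, 20.3 and 19.6 FPKM in WT_V, against 18.4, 18.5 and 19.1 FPKM in WT. These sets also lay apart, but the log2 difference was 0.11 ± 0.04 (adjusted p = 0.0287), turned to -0.08 after median-of-ratios scaling and -0.06 after quantile normalization, and was no longer called without WT_V_1 (adjusted p = 0.0952), WT_V_2 (0.0667), WT_1 (0.0724) or WT_2 (0.0693).

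IRX14 (AT4G36890), a further glycosyltransferase of chain elongation, stood at 21.0, 20.4 and 21.0 FPKM in WT_V and at 17.0, 15.6 and 15.3 FPKM in WT, again without overlap, at a log2 difference of 0.36 ± 0.05 (adjusted p = 4.19e-05). IRX14-L (AT5G67230) was low, with 3.86, 4.30 and 4.84 FPKM in WT_V, against 3.36, 3.94 and 4.02 FPKM in WT. Its sets overlapped, and the log2 difference of 0.16 had a 95% interval of -0.05 to 0.36 (adjusted p = 0.138). Median-of-ratios scaling gave -0.000957 for it, and quantile normalization gave -0.38 with a call of lower. The 6 backbone genes summed to 102.6 ± 0.887 FPKM in WT_V and 80.5 ± 2.82 FPKM in WT (SD over 3 libraries each), the smallest ratio of the 8 steps (1.27).

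The balance within pairs was set out as the share that a gene had of the summed FPKM of its pair, which a change of scale of a library leaves as it is. How reads that fit both homologs were counted is not given in the sources used here, so the split within a pair is uncertain to that extent. IRX9 made up 32.1, 31.8 and 30.5% of its pair in WT_V libraries, against 13.7, 14.0 and 15.7% in WT libraries, a difference of 17.0 percentage points. IRX10 made up 49.6, 50.6 and 53.8% in WT_V, against 41.5, 37.4 and 40.9% in WT, a difference of 11.4 points. In both pairs the sets lay apart, with p = 0.1 in the exact two-sided permutation test, the smallest possible with 3 against 3, and 0.117 after adjustment over 7 shares. IRX14 made up 82.8 ± 1.63% in WT_V and 80.9 ± 2.28% in WT (SD, n = 3 each), with overlapping sets (exact permutation p = 0.3).

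**Figure D2:**
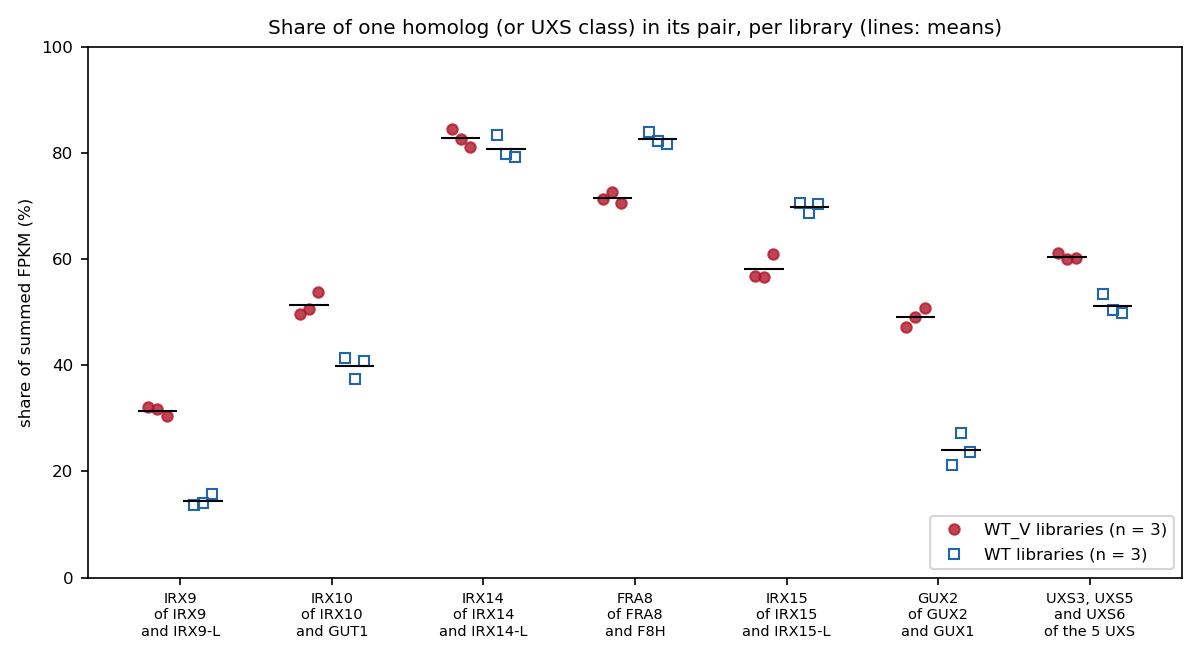
Share (percent) of the first-named gene or genes in the summed FPKM of the pair or class, per library, for WT_V (circles, left of each position) and WT (squares, right), with lines at the means (n = 3 each). IRX9, IRX10, GUX2 and the cytosolic UXS (UXS4 left out) had higher shares in WT_V, FRA8 and IRX15 lower ones, and the IRX14 sets overlap.

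All 4 genes of the reducing end were called higher. GAUT12 (IRX8, AT5G54690), a member of the galacturonosyltransferase family needed for the reducing end sequence, stood at 12.1, 11.4 and 11.5 FPKM in WT_V libraries, against 3.48, 3.06 and 3.31 FPKM in WT libraries. The sets were far apart, with a ratio of means of 3.56 and a log2 difference of 1.57 ± 0.07 (± SE with 3 libraries a set, adjusted p = 4.12e-09). Its values came from 1207, 1178 and 1096 recovered counts in WT_V and 283, 287 and 274 in WT. GAUT12 overlaps AT5G54680 on the other strand, and 10 of the 33 members overlap a neighbour, namely IRX14-L, GAUT12, FRA8, IRX15-L, GXM3, TBL31, TBL35, RWA1, RWA3 and UXS2. No source used here gives the strand setting of the counting, so reads of such neighbours cannot be told apart from theirs. PARVUS (AT1G19300), a related transferase, measured 23.2 ± 0.538 FPKM in WT_V and 13.5 ± 0.154 FPKM in WT (mean ± SD, n = 3 each, log2 difference 0.74).

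In the remaining pair of that step the homolog had the larger difference. FRA8 (IRX7, AT2G28110), known from fibre walls, stood at 20.1, 22.8 and 20.8 FPKM in WT_V, against 20.4, 18.4 and 18.8 FPKM in WT, and the sets overlapped. Its log2 difference of 0.14 ± 0.06 was called (adjusted p = 0.0424), turned to -0.05 after median-of-ratios scaling and -0.03 after quantile normalization, and lost the call without WT_V_2 (adjusted p = 0.18), WT_V_3 (0.071), WT_2 (0.129) or WT_3 (0.103). F8H (AT5G22940), its homolog, stood at 8.05, 8.54 and 8.68 FPKM in WT_V, against 3.88, 3.97 and 4.21 FPKM in WT, without overlap, at 0.91 ± 0.07 (adjusted p = 3.33e-07). FRA8 thus made up 71.4, 72.7 and 70.6% of its pair in WT_V libraries, against 84.0, 82.3 and 81.7% in WT libraries (exact permutation p = 0.1).

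IRX15 and IRX15-L, Golgi proteins needed for normal xylan deposition, were both higher. IRX15 (AT3G50220) stood at 15.8, 15.8 and 15.2 FPKM in WT_V and at 11.4, 11.2 and 10.8 FPKM in WT, a log2 difference of 0.45 ± 0.05 (adjusted p = 7.61e-06). IRX15-L (AT5G67210) stood at 11.97, 12.05 and 9.72 FPKM in WT_V, against 4.74, 5.13 and 4.54 FPKM in WT, a log2 difference of 1.07 ± 0.08 (adjusted p = 7.03e-07). Neither pair of sets overlapped, and WT_V_3 was the low library of IRX15-L in its set. IRX15 made up 58.2 ± 2.48% of the pair in WT_V and 69.9 ± 1.09% in WT (SD, n = 3 each, exact permutation p = 0.1).

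The glucuronosyltransferases held the greatest difference of the 30 tested members, that of GUX2, and a gene that was not called, GUX3. GUX2 (AT4G33330), which adds glucuronic acid to the xylan of secondary walls, stood at 7.45, 8.01 and 7.98 FPKM in WT_V libraries, against 0.905, 1.10 and 1.06 FPKM in WT libraries. That is a ratio of means of 7.65 and a log2 difference of 2.12 ± 0.08 (± SE with 3 libraries a set, adjusted p = 1.55e-09). GUX1 (AT3G18660), the other transferase of secondary wall xylan, stood at 8.33, 8.32 and 7.70 FPKM in WT_V, against 3.36, 2.96 and 3.42 FPKM in WT, at 1.10 ± 0.07 (adjusted p = 1.68e-07). GUX2 was near the level of GUX1 in WT_V, with 47.2, 49.0 and 50.9% of their sum, against 21.2, 27.2 and 23.6% in WT, where it was the lower (exact permutation p = 0.1). GUX3 (AT1G77130), known to act on the xylan of primary walls, stood at 18.9, 17.3 and 19.7 FPKM in WT_V and at 19.0, 18.0 and 17.5 FPKM in WT. Its sets overlapped, and the log2 difference of 0.03 had a 95% interval of -0.09 to 0.16 (adjusted p = 0.575), with -0.16 after median-of-ratios scaling and -0.15 after quantile normalization, both called lower.

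Of the 3 genes for methylation of the glucuronic acid side chains, 2 were tested and higher, and 1 was near 0. GXMT1 (AT1G33800), the glucuronoxylan methyltransferase, stood at 15.7, 15.1 and 14.4 FPKM in WT_V libraries, against 6.16, 7.43 and 5.87 FPKM in WT libraries, without overlap, at a log2 difference of 1.11 ± 0.08 (adjusted p = 2.82e-07). GXM2 (AT4G09990), a homolog, stood at 2.30, 2.81 and 2.57 FPKM in WT_V and at 1.01, 1.82 and 1.43 FPKM in WT, at 0.57 ± 0.13 (adjusted p = 0.00192). With quantile normalization GXM2 was at -0.12 and not called. GXM3 (AT1G09610) had 3, 0 and 2 recovered counts in WT_V, against 2, 2 and 0 in WT, all at or under the 3 counts that a value of 0 allows for, so no fold is given.

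Acetyl groups are added by ESK1 and further members of the TBL family. TBL33 (AT2G40320) stood at 13.7, 15.1 and 15.1 FPKM in WT_V libraries, against 4.85, 5.33 and 5.61 FPKM in WT libraries, and the log2 difference was 1.32 ± 0.07 (SE, n = 3 per set, adjusted p = 1.82e-08). ESK1 (TBL29, AT3G55990), the main xylan acetyltransferase of the stem, stood at 6.01, 6.25 and 6.15 FPKM in WT_V, against 2.45, 2.44 and 2.06 FPKM in WT, at 1.11 ± 0.08 (adjusted p = 2.8e-07). In both genes the sets lay far apart. TBL3 (AT5G01360) measured 3.61 ± 0.0910 FPKM in WT_V and 2.15 ± 0.199 FPKM in WT (mean ± SD, n = 3 each, log2 difference 0.55, but -0.08 with quantile normalization).

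TBL35 (AT5G01620) was the least different of the family, at 5.98, 5.12 and 5.36 FPKM in WT_V and 4.203, 4.25 and 5.20 FPKM in WT, with overlapping sets. Its call (log2 difference 0.23 ± 0.09, adjusted p = 0.0379) ended with median-of-ratios scaling (0.06), turned to lower with quantile normalization (-0.26), and ended without WT_V_1 (adjusted p = 0.144), WT_V_3 (0.0713), WT_1 (0.114) or WT_2 (0.111). TBL31 and TBL34 averaged under 1 FPKM, so the filter kept them out of the test. TBL31 (AT1G73140) had 37, 49 and 44 recovered counts in WT_V, against 17, 18 and 5 in WT. TBL34 (AT2G38320) stood at 0.908, 0.981 and 0.875 FPKM in WT_V and at 0.474, 0.482 and 0.369 FPKM in WT, and in neither gene did the sets overlap.

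RWA proteins act upstream of these transferases in the acetylation of wall polymers, and all 4 genes were higher. RWA4 (AT1G29890) stood at 9.92, 9.90 and 10.6 FPKM in WT_V libraries, against 4.73, 4.99 and 4.99 FPKM in WT libraries, a log2 difference of 0.92 ± 0.06 (adjusted p = 1.75e-07). RWA1 (AT5G46340) differed least, with 26.1, 27.5 and 25.7 FPKM in WT_V, against 18.7, 19.5 and 18.5 FPKM in WT, at 0.46 ± 0.04 (adjusted p = 2.21e-06). RWA2 (AT3G06550) measured 25.7 ± 0.907 FPKM in WT_V and 15.2 ± 0.601 in WT, and RWA3 (AT2G34410) 12.5 ± 0.365 FPKM in WT_V and 8.31 ± 0.0858 FPKM in WT (mean ± SD, n = 3 each). None of the 4 had overlapping sets, and the call of higher held for each under both other scalings.

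The 5 UDP-xylose synthases (UXS) listed, which make the donor of the backbone, had the highest summed FPKM of the 8 steps, and all 5 were higher. UXS3 (AT5G59290) had the highest level of the 33 genes in both sets, at 67.6, 66.2 and 68.9 FPKM in WT_V libraries, against 37.4, 35.96 and 35.9 FPKM in WT libraries (log2 difference 0.87 ± 0.03, adjusted p = 9.47e-10). UXS6 (AT2G28760) differed most, with 9.42, 9.01 and 10.2 FPKM in WT_V, against 3.63, 3.77 and 3.24 FPKM in WT, at 1.21 ± 0.07 (adjusted p = 8.88e-08). UXS5 (AT3G46440) measured 28.2 ± 0.682 FPKM in WT_V and 16.9 ± 1.39 FPKM in WT (mean ± SD, n = 3 each). UXS2 (AT3G62830) differed least, with 29.5, 30.9 and 32.2 FPKM in WT_V, against 23.4, 25.0 and 24.7 FPKM in WT, at 0.33 ± 0.04 (adjusted p = 4.52e-05). UXS1 (AT3G53520) measured 38.0 ± 1.03 FPKM in WT_V and 29.7 ± 1.11 in WT, at 0.34 ± 0.04.

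UXS3, UXS5 and UXS6 are the cytosolic forms, while UXS1 and UXS2 are anchored in the Golgi membrane. UXS4, a further membrane form, is not among the 33 genes and measured 57.6 ± 1.74 FPKM in WT_V and 34.9 ± 1.83 FPKM in WT (mean ± SD, n = 3 each). Without UXS4, the cytosolic forms made up 61.2, 60.1 and 60.2% of the summed FPKM of the 5 genes in WT_V libraries, against 53.4, 50.4 and 49.9% in WT libraries. The sets lay apart by 9.24 percentage points of means (exact two-sided permutation p = 0.1). With UXS4 counted among the membrane forms, an alternative chosen after seeing the data, the cytosolic share was 46.2, 44.6 and 45.5% in WT_V, against 41.2, 38.0 and 37.7% in WT, 6.45 points apart (exact two-sided permutation p = 0.1).

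**Figure D3:**
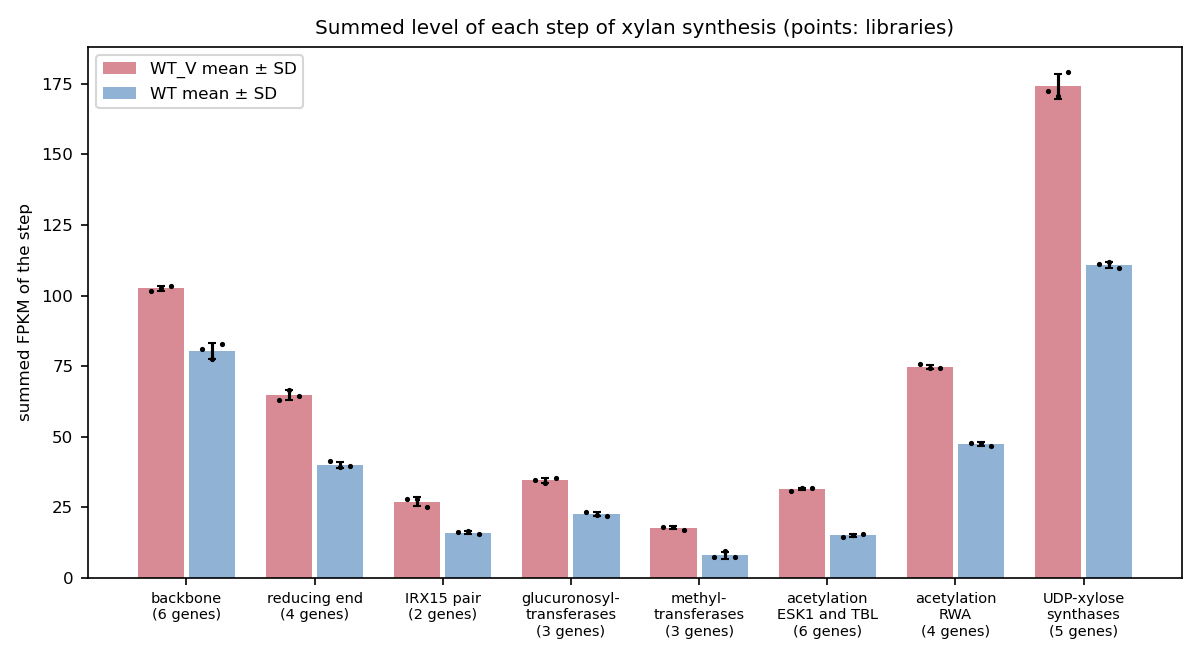
Summed FPKM of the genes of each step (bars: mean, error bars: SD, n = 3 each; points: libraries), WT_V left and WT right. The UDP-xylose synthases sum to 174 ± 4.45 FPKM in WT_V and 111 ± 1.08 in WT, and the methyltransferases, with the greatest ratio (2.22), to 17.7 ± 0.564 FPKM in WT_V and 7.94 ± 1.18 in WT.

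Across steps, the ratio of summed FPKM was 2.22 for the methyltransferases, 2.10 for ESK1 and the TBL genes, 1.68 for the IRX15 pair, 1.61 for the reducing end, 1.58 for RWA, 1.57 for UXS, 1.54 for the glucuronosyltransferases and 1.27 for the backbone. Sums weigh the genes with the highest levels most, such as GUX3 among the glucuronosyltransferases. The median log2 difference of the tested genes gave another order. It was 1.10 for the glucuronosyltransferases, 0.84 for the methyltransferases, 0.83 for ESK1 and TBL and 0.82 for the reducing end. For the IRX15 pair it was 0.76, for UXS 0.71, for RWA 0.62 and for the backbone 0.26. Each step's share of the members' summed FPKM ran from 3.35 to 33.1% in WT_V and from 2.33 to 32.6% in WT, and the backbone held 19.5% in WT_V and 23.7% in WT. Differences were greater where the WT level was low. Of the 16 members under 5 FPKM in WT, 13 were tested, and 7 of the 13 had a log2 difference of 1 or more. Of the 17 members at 5 FPKM or more in WT, 2 had such a difference. Spearman's rho of WT level and log2 difference was -0.59 over the 30 tested members and -0.54 over all tested genes, and the WT value enters both quantities. The order of the genes was much alike in both sets (rho 0.94 over 33 genes). The cellulose synthase genes of the secondary wall, CESA4, CESA7 and CESA8, had log2 differences of 1.07, 1.17 and 1.90, and 9 xylan genes were above the lowest of these.

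**Figure D4:**
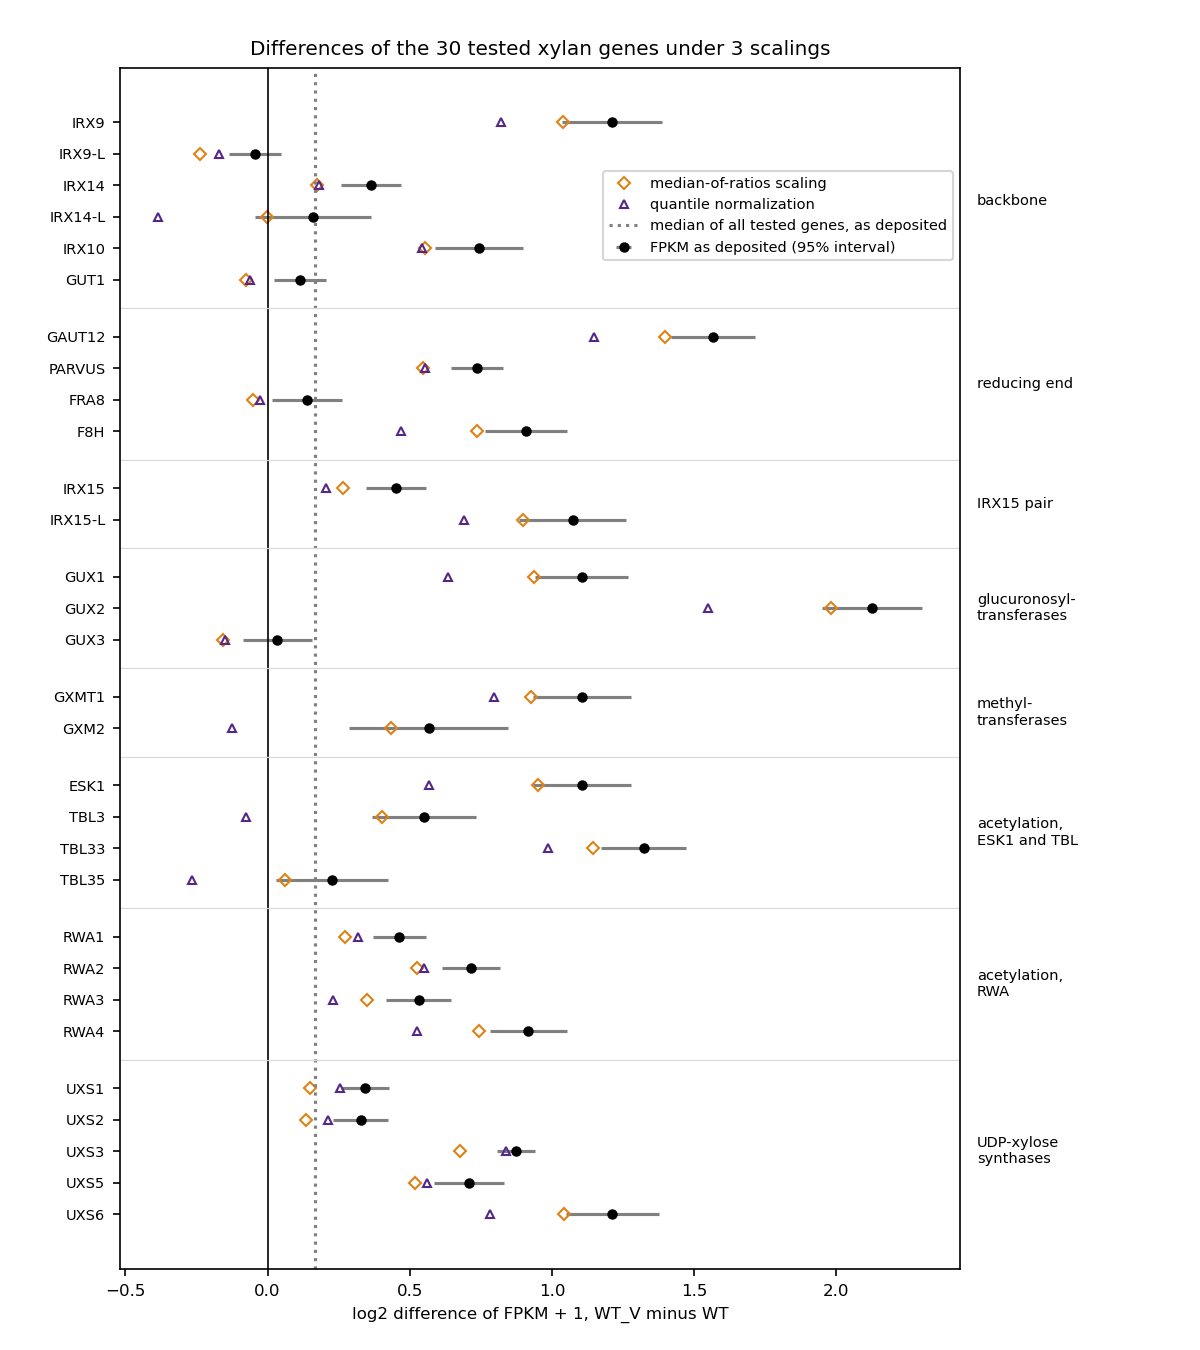
Log2 difference of FPKM + 1, WT_V minus WT, of the 30 tested xylan genes by step, for FPKM as deposited (black, 95% interval), median-of-ratios scaling (diamonds) and quantile normalization (triangles); the dotted line is the median of all tested genes (0.17). GUX2 is farthest right at 2.12 and IRX9-L farthest left at -0.05 as deposited. As deposited, IRX14-L, FRA8, GUT1 and TBL35 lie near the dotted line, and GUX3, at 0.03, lies nearer to 0.

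Other genes of the pathway were read in the same fit. Of 12 genes for precursor supply and nucleotide sugar transport, 11 were higher in WT_V and 1 lower, at a median log2 difference of 0.83. Over all tested genes 51.9% were higher and 24.1% lower, at a median of 0.17. After median-of-ratios scaling 10 of the 12 were called higher and 1 lower, against 35.8% and 37.7% of all tested genes. Quantile normalization gave 9 higher and 0 lower, against 29.8% and 44.9%. UGD3, a UDP-glucose dehydrogenase that makes UDP-glucuronic acid, measured 36.7 ± 0.779 FPKM in WT_V and 12.8 ± 0.463 FPKM in WT (mean ± SD, n = 3 each, log2 difference 1.45, adjusted p = 1.7e-10). UGD4 measured 11.1 ± 0.613 FPKM in WT_V and 4.24 ± 0.129 in WT, and AT5G04160, annotated as a nucleotide-sugar transporter family protein, 10.1 ± 0.412 FPKM in WT_V and 4.21 ± 0.643 in WT. The gene called lower, named here after its value was seen, was AXS1, a UDP-apiose and UDP-xylose synthase, at 150 ± 3.15 FPKM in WT_V and 169 ± 3.36 in WT (log2 difference -0.17, with -0.37 after median-of-ratios scaling and -0.01, not called, after quantile normalization).

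Of 9 further family members and xylan-trimming enzymes, 5 were tested, with 4 higher, 0 lower and a median log2 difference of 0.40. The same background holds, with 51.9% of all tested genes higher, 24.1% lower and a median of 0.17. BXL2, a beta-xylosidase, measured 8.96 ± 0.272 FPKM in WT_V and 5.29 ± 0.442 FPKM in WT (mean ± SD, n = 3 each), TBL32 7.93 ± 0.681 FPKM in WT_V and 5.69 ± 0.560 in WT, and AT3G10320 8.60 ± 0.118 FPKM in WT_V and 6.27 ± 0.139 in WT. After quantile normalization TBL32 and AT3G10320 were at 0.01 each and no longer called (adjusted p = 0.912 for TBL32 and 0.841 for AT3G10320). BXL1 was not called, at 88.7 ± 1.01 FPKM in WT_V and 91.1 ± 0.639 in WT (log2 difference -0.04, 95% interval -0.09 to 0.01, adjusted p = 0.15). Every WT_V value of BXL1 lay below every WT value, and it was called lower after median-of-ratios scaling (-0.24) and not called after quantile normalization (0.02). GUX4, GUX5, TBL30 and XYN1 averaged under 1 FPKM and were not tested. In each, every WT_V value lay above every WT value, as in 53.1% of all tested genes. That share does not cover genes under the filter. XYN1 stood at 1.57, 1.84 and 1.35 FPKM in WT_V, against 0.0802, 0.0766 and 0.00789 FPKM in WT. GUX5 measured 1.34 ± 0.133 FPKM in WT_V and 0.218 ± 0.109 in WT, and TBL30 1.13 ± 0.159 FPKM in WT_V and 0.583 ± 0.143 in WT (mean ± SD). GUX4 was near 0, at 0.0513 FPKM on average in WT_V and 0 in WT. It had 1, 8 and 6 recovered counts in WT_V and 0 in each WT library. Its lowest WT_V count is within the 3 counts that a value of 0 allows for, so the sets are not clearly apart.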

How the data were processed

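The 6 RNA-seq libraries came from mature stems, 3 with titles naming the γVPE mutant and 3 naming the wild type. Their values are FPKM in a single table, as deposited by the authors, that is, fragments scaled to gene length and library size. Per the submitters' processing notes Bowtie2 2.2.3, TopHat2 2.0.12 and HTSeq 0.6.1 were used, while genome build, annotation, strand setting and the handling of reads shared by homologs were not stated. Columns named WT matched the wild type titles, and those named WT_V were the ones left. Gene symbols and positions came from RefSeq, assembly TAIR10.1, which matched 32548 of 34484 identifiers.

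The members and lists were chosen with earlier results of these data known. A gene was tested where its 6 values averaged 1 FPKM or more. Tests used limma 3.58.1 (R 4.3.3) on log2(FPKM + 1), WT_V minus WT, with the variance trended on intensity, Benjamini-Hochberg adjustment over all 19144 genes and a threshold of 0.05. This scale understates the change of low genes. Shares were tested with scipy 1.17.1 by exact permutation. Counts were recovered as FPKM times TAIR10.1 exon length times a scaling total, and were whole within 0.06 for 17 members, those with 1 annotated transcript, and for 99.06 to 99.34% of single-transcript genes under 500 counts within 0.02. They describe depth and entered no test, and floors of 3 counts cover counting error only. The fit was also run on simulated independent libraries in which few genes differed, evenly in both directions. Most of the real table differed and its libraries may be technical repeats, so that run does not bear on the calls here. Values in every library are given for homolog pairs, for the greatest and least difference of each step and for genes not called, and, in addition, for ESK1, UXS3 and the members under the filter. Of the other pathway lists, up to 3 tested genes with the greatest difference are named. Values are also given for UXS4, AXS1, BXL1 and the genes under the filter. As alternatives, the pseudocount was set to 0.1 or 5, the filter was dropped or raised to 5 FPKM, libraries were scaled by median of ratios or quantiles, organelle genes were removed, the trend was dropped, a replicate block was added, and each library was left out. Protein sequences were not used here, so homolog identity was not computed.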

Additional observations from a re-analysis of the deposited data

How the results depend on the processing

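Of the 30 tested members, 22 kept direction and call under each alternative that could be run for them (15 for 20 of them, and 14 for GUX2 and ESK1, which a minimum of 5 FPKM leaves out), and IRX9-L, IRX14-L, GUT1, FRA8, GUX3, GXM2, TBL3 and TBL35 did not. With one library left out the members called higher ranged from 24 to 26 and their median log2 difference from 0.679 to 0.741. That median was 0.586 with a pseudocount of 5, 0.567 without a filter, 0.521 after median-of-ratios scaling and 0.498 after quantile normalization. Against 0 as deposited, 2 members were called lower after median-of-ratios scaling and 4 after quantile normalization. Over the table, median-of-ratios scaling gave 7213 genes lower, and quantile normalization 5711 higher and 8596 lower, against 9931 higher and 4619 lower. A minimum of 5 FPKM, which tests fewer genes, left 1 glucuronosyltransferase, 1 methyltransferase and 2 ESK1 and TBL genes called higher, and quantile normalization left 1 methyltransferase and 2 ESK1 and TBL genes. Among the other pathway genes, quantile normalization left 0 precursor genes lower and 2 trimming and family genes higher, no filter gave 7 trimming and family genes higher, and median-of-ratios scaling 1 lower (BXL1). Reversed differences were IRX14-L (-0.000957 with median-of-ratios scaling, -0.384 with quantile normalization), GUT1 (-0.0767 and -0.060), FRA8 (-0.0521 and -0.0281) and GUX3 (-0.155 and -0.149, and from -0.00505 to 0.0842 with each library left out in turn). With quantile normalization GXM2 (-0.124), TBL3 (-0.077) and TBL35 (-0.264) also reversed. The cause was not tested. Same-numbered libraries had correlations of their deviations of -0.0157, -0.0156 and 0.0141, and 1 of 3 WT_V libraries correlated best with its own number. No pairing by number was seen, which cannot show that the samples were unpaired. With a replicate block 14477 genes were called, against 14550, and GUT1 (adjusted p = 0.0506) and FRA8 (adjusted p = 0.0595) lost the call. FRA8 (adjusted p = 0.0723) and TBL35 (adjusted p = 0.0745) also lost it without a filter, and FRA8 without a trend (adjusted p = 0.0772). Without a filter TBL31 (log2 difference 0.41, adjusted p = 0.00331) and TBL34 (0.42, adjusted p = 0.000621) were called higher and GXM3 (0.00405, adjusted p = 0.929) was not. Depth limits GXM3.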
